A study of Homo sapiens with 54 samples.

Results

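The regions described here are hormone-only Maf1 regions without the progesterone receptor (PR). Each was found by Maf1 immunoprecipitation in T47D cells after the synthetic progestin R5020, and shared no base with a Maf1 region of vehicle-treated cells or with a PR region of R5020-treated cells. They were chosen from the lists of Maf1 and PR regions themselves, on chromosomes 1 to 22 and X. There were 3560 of them, 15.7% of the 22638 Maf1 regions found after R5020 and 17.8% of the 20021 found with hormone only. Of the other R5020 Maf1 regions, 16461 were hormone-only and shared sequence with PR, 445 were also in the vehicle list and lacked PR, and 2172 were in the vehicle list and had PR. Since Maf1 and R5020 PR defined the regions, their Maf1 values and their distance to PR are given as descriptions.

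T47D is an established human breast cancer line that carries both the estrogen and the progesterone receptor. Every library came from T47D cells given either ethanol vehicle (labelled OH) or R5020 for 1 h, in medium with serum and insulin. Chromatin immunoprecipitation followed by sequencing used 8 antibodies: PR, Maf1, Brf1, acetylated lysine 27 of histone H3 (H3K27Ac), and 4 subunits of RNA polymerase III (POLR3A, POLR3C, POLR3G, POLR3GL). The 54 libraries form 18 groups of 3, among them 6 input libraries, and each antibody and treatment is represented by 1 deposited list of regions, 16 lists in all. No value below therefore has a replicate error, no p-value is given, and the read depth behind a region is unknown. Shares carry 95% Wilson intervals and differences of shares carry Newcombe intervals. These cover counting error only, and neighbouring regions are not independent.

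Maf1 is a repressor of RNA polymerase III, the enzyme that makes transfer RNA (tRNA), 5S ribosomal RNA and other short RNAs. It acts on the polymerase and on Brf1, a part of the initiation factor that brings the polymerase to tRNA genes, and its activity is set by nutrient and growth signals through the kinase complex TORC1. PR is a hormone-activated transcription factor that binds DNA directly or through other proteins, and H3K27Ac marks active promoters and enhancers. POLR3A is the largest polymerase III subunit, POLR3C belongs to a subcomplex needed for initiation, and POLR3G and POLR3GL are alternative forms of one subunit.

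As a check of the cell line, R5020 H3K27Ac regions lay within 1 kb of an end of 11 of 12 luminal marker genes, all but TFF1, and vehicle H3K27Ac regions at all 12. At basal marker genes the count was 6 of 8 after R5020 (VIM, ACTA2, KRT17, CNN1, MYLK and TP63, but not KRT5 or KRT14), against 69.5% of all 19970 protein-coding genes. For 4 of the libraries titled R5020 (2 of POLR3C, 1 of POLR3G and 1 of POLR3GL) the treatment tag names ethanol, so the treatments of these subunits rest on the titles. The lists differ widely in length, from 6662 PR regions with vehicle to 173115 with R5020, and from 3048 to 22638 for Maf1.

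The promoter sequences of 5 genes with such a region are shown first, because promoters with these regions differed from all promoters in several motifs, as did those of hormone-only Maf1 regions with PR. Each line gives the 250 bases before a RefSeq start site (GRCh38.p14), 5′ to 3′ on the gene's strand. Capitals mark matches to any of the 14 motifs named with the promoter results. SNX12 encodes a sorting nexin, RPS18 a ribosomal protein, SNAPC2 a subunit of the factor that binds small nuclear RNA promoters, TSC2 a repressor of TORC1 and RHEB an activator of it.
SNX12, chrX:71068335-71068584, minus strand: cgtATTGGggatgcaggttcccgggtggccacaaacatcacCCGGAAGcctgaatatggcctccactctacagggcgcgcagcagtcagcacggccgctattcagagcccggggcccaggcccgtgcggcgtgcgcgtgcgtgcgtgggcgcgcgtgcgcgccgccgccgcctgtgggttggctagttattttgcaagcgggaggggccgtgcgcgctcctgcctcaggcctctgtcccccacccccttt
RPS18, chr6:33271825-33272074, plus strand: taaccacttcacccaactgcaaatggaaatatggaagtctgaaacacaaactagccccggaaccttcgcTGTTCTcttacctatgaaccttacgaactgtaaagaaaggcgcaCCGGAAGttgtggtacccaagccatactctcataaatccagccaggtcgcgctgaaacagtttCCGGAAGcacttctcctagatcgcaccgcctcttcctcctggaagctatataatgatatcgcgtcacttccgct
SNAPC2, chr19:7920088-7920337, plus strand: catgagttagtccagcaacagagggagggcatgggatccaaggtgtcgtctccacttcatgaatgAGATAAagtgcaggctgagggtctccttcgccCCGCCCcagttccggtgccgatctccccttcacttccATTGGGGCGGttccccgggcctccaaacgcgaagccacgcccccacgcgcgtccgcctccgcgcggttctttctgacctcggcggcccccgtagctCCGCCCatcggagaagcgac
TSC2, chr16:2047735-2047984, plus strand: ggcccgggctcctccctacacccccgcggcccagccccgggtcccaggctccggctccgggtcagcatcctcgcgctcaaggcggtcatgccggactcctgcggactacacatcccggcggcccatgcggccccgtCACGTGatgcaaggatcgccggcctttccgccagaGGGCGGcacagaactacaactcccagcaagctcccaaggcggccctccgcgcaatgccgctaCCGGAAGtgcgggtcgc
RHEB, chr7:151519896-151520145, minus strand: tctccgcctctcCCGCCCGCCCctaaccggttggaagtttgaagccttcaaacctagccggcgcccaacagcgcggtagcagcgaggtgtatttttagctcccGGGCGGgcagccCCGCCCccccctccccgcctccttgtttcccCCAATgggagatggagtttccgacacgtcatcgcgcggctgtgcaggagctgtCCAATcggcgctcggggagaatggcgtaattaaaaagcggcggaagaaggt
Each of these stretches shared bases with its Maf1 region: 197 bases at SNX12, 61 at RPS18, 138 at SNAPC2, 122 at TSC2 and 134 at RHEB.

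The Maf1 regions without PR were weak within the R5020 Maf1 list. The fold enrichment, the authors' own ratio of signal at the summit over background, ranged from 1.26 to 12.3 with a median of 3.33, against a median of 4.41 for the hormone-only regions with PR. The median −log10 q, also the authors' value, was 3.97 against 7.96. Of the regions without PR, 1108 (31.1%) reached a −log10 q of 5 and 154 (4.33%) reached 10, against 74.2% and 40.4% of those with PR. The median region was 209 bp wide, against 273 bp. Many regions carried identical values: 2651 (74.5%) shared their exact pair of fold and q with at least 1 other, and the commonest pair, a fold of 3.35 with a −log10 q of 3.06, belonged to 101 regions.

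The distance to PR is bounded by the rule and also reflects the length of the R5020 PR list, 173115 regions, so it is given as a description with no background. The median distance to the nearest R5020 PR region was 3608.5 bp, 965 regions (27.1%) lay within 1 kb, 2571 (72.2%) within 10 kb, and 299 (8.40%) beyond 50 kb. The regions nearest to the boundary of the rule lay at DNAJB11, a chaperone gene, SRP19, a gene of the signal recognition particle, and FBRS, each directly beside a PR region, with Maf1 folds of 3.13, 3.44 and 3.95. ZNF438, a zinc finger gene, and the histone gene H1-2 followed at 3 bp and 6 bp, with folds of 3.08 and 6.28. Just outside the rule, a region at SLC25A22 shared 1 base with PR and had a fold of 5.38. Regions at TRAM1, NKX2-2 and DHX35 shared 3 bases, with folds of 2.97, 3.72 and 2.75, and so did a region 1628 bp from TBC1D16, with a fold of 2.93. All 10 of these regions, on both sides of the boundary, had H3K27Ac in both treatments. The nearest vehicle Maf1 region was a median of 126713 bp away and lay within 1 kb of 227 regions (6.38%).

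The share of R5020 Maf1 regions that belonged to the group varied by chromosome. It was lowest on chromosome 18, at 16 of 263 regions (6.08%, 3.78 to 9.65), and highest on chromosome 21, at 92 of 362 (25.4%, 21.2 to 30.1). Regions with no other of the group within 10 kb numbered 2366 (66.5%). The remainder stood in runs, and 33 runs of 5 or more held 263 regions (7.39%). The run with the most regions, 29 over 108000 bp, covered REXO1L copies of chromosome 8. Runs of 14 covered the 5S ribosomal RNA genes of chromosome 1 and MIRLET7BHG, the host of let-7 microRNAs on chromosome 22. Runs of 10 covered FBXL18 on chromosome 7, CYKILR on chromosome 19, RTEL1, a helicase gene, on chromosome 20, and MIR6724-2 on chromosome 21. The MIRLET7BHG run had 11 acetylated regions, and 7 PR regions lay within its span. The CYKILR run had 9 acetylated regions and no PR region nearer than 16884 bp.

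Close to equal numbers of the regions carried and lacked H3K27Ac. After R5020, 1731 of 3560 (48.6%, 46.98 to 50.3) shared sequence with H3K27Ac, against 80.3% (79.7 to 80.9) of the hormone-only regions with PR and 76.6% of all R5020 Maf1 regions. The difference from the regions with PR was -31.7 percentage points (-33.4 to -29.9). With vehicle, when none of these regions was in the Maf1 list, the share was 44.1% (42.5 to 45.7), against 73.5% with PR and 71.0% of all. Relative to the 445 regions that had Maf1 before hormone and lacked PR, of which 63.8% were acetylated after R5020, the difference was -15.2 points (-19.8 to -10.3).

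At most of the regions both treatments gave the same acetylation state. Both lists held H3K27Ac at 1451 regions (40.8%, against 68.4% of all R5020 Maf1 regions) and neither did at 1710 (48.0%, against 20.8%). Acetylation was found with R5020 only at 280 (7.87%, against 8.24%) and with vehicle only at 119 (3.34%, against 2.60%). The regions without acetylation in either treatment lay a median of 8746 bp from PR, and those acetylated in both a median of 1141 bp. R5020 POLR3G was at 14.6% of the former and 61.0% of the latter, and 15.1% and 56.3% lay within 1 kb of a protein-coding gene end. R5020 POLR3A was at 3.51% and 3.58%.

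In each class of Maf1 −log10 q the acetylated share was lower without PR than with PR, and the shares were closer at 10 or more than under 3. These q values come from the list that defined the regions, and whether Maf1 strength bears on the difference was not tested. Among regions with a −log10 q under 3, 37.2% (34.2 to 40.2) of those without PR and 80.5% (78.0 to 82.8) of those with PR had R5020 H3K27Ac. Among those at 10 or more the shares were 65.6% (57.8 to 72.6) and 84.5% (83.7 to 85.4). The share without PR was higher in each stronger class, while the share with PR stayed between 76.7% and 84.5%.

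**Figure D1:**
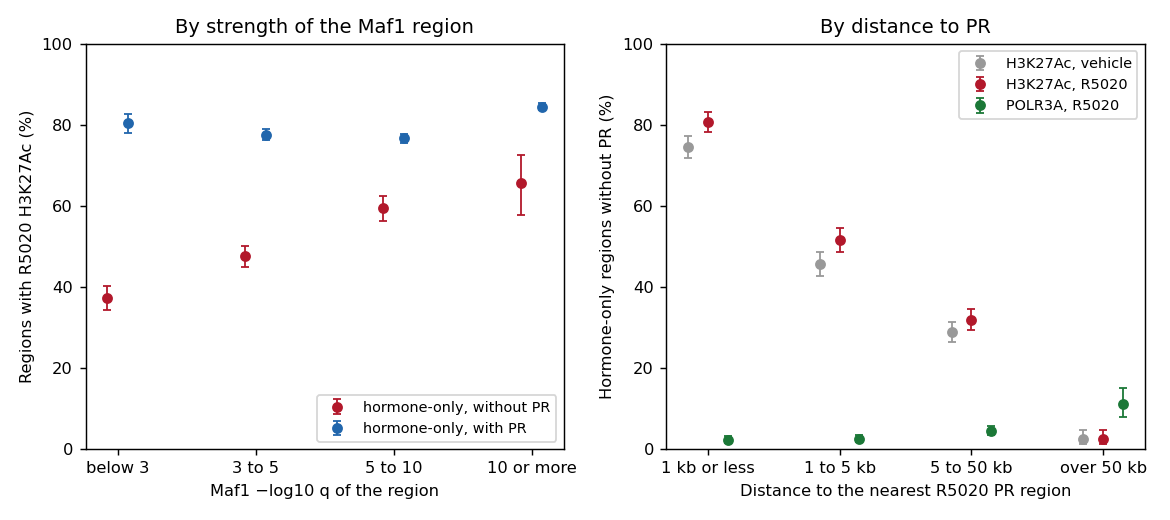
Left, share of Maf1 regions with R5020 H3K27Ac (percent) in 4 classes of Maf1 −log10 q, for hormone-only regions without and with PR; right, share of the hormone-only regions without PR that held H3K27Ac or POLR3A in 4 classes of distance to the nearest R5020 PR region. Points are shares and bars are 95% Wilson intervals; on the left the points without PR lie between 37.2% and 65.6%, below every point with PR, and on the right R5020 acetylation goes from 80.8% to 2.34%.

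Acetylation of the regions without PR followed their distance to PR. Within 1 kb of a PR region, 780 of 965 (80.8%, 78.2 to 83.2) had R5020 H3K27Ac, beside the 80.3% of the regions that touched PR. From 1 to 5 kb the share was 51.5% of 1084 (48.5 to 54.4), from 5 to 50 kb 31.8% of 1212 (29.3 to 34.5), and beyond 50 kb 2.34% of 299 (1.14 to 4.75), which is 7 regions. Vehicle acetylation had the same order, from 74.6% within 1 kb to 2.34% beyond 50 kb. R5020 POLR3A was at 2.07% within 1 kb (1.35 to 3.18) and 11.0% beyond 50 kb (7.97 to 15.1), which is 33 regions. Of these 33, 17 lay in the spans of the repeated arrays described below, and so did 26 of the 52 in the class from 5 to 50 kb. Outside those spans the POLR3A share was 1.98%, 1.79%, 2.21% and 6.08% (3.78 to 9.65) from the nearest to the farthest class. The last is 16 of 263 regions. Only the named arrays were taken out, and the remaining regions were not screened for other repeated sequence. The 1731 acetylated Maf1 regions lay in 1600 H3K27Ac regions, of which 601 (37.6%) held PR elsewhere along their length, against 36.8% of all 112542 R5020 H3K27Ac regions. These shares are not of like regions, since the median width was 1245.5 bp for the 1600 and 404 bp for all.

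**Figure D2:**
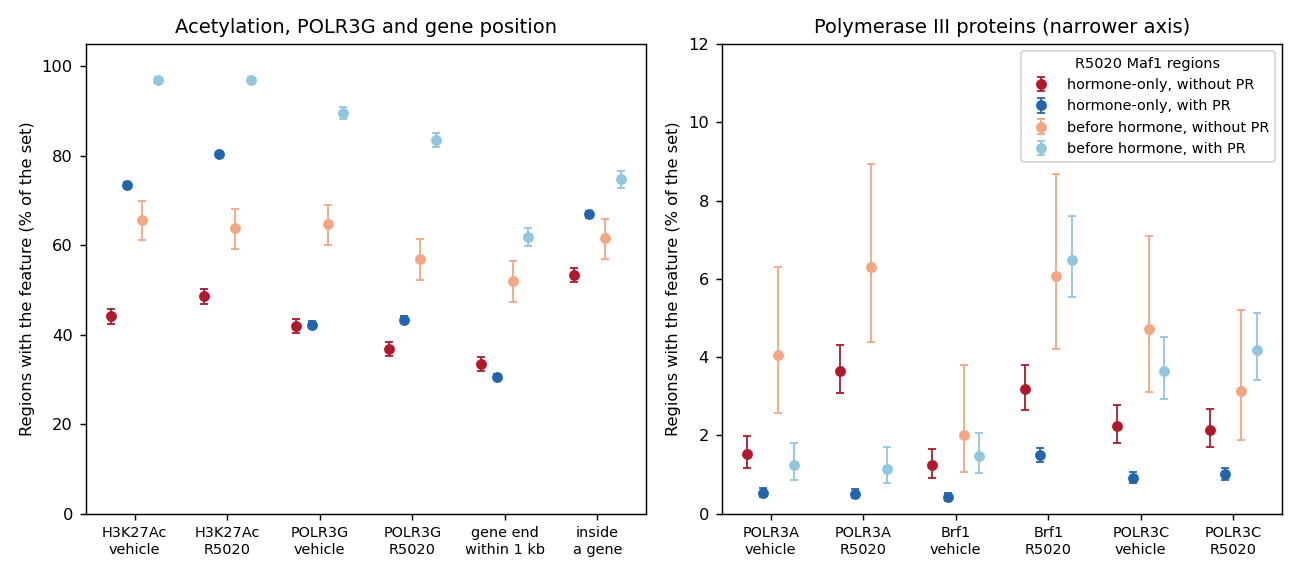
Share of 4 sets of R5020 Maf1 regions (percent of the set, with 95% Wilson intervals) that shared sequence with H3K27Ac, POLR3G, POLR3A, Brf1 or POLR3C in each treatment, or that lay near or in protein-coding genes; the right panel has a narrower axis. The hormone-only regions without PR (dark red) have the lowest acetylated share of the 4 sets, 48.6% after R5020, and a POLR3A share of 3.65% against 0.504% for hormone-only regions with PR.

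POLR3A and Brf1 were found at a small share of the regions without PR, and after R5020 at a larger one than with PR. R5020 POLR3A was at 130 regions (3.65%, 3.08 to 4.32), against 0.504% of the hormone-only regions with PR and 1.18% of all R5020 Maf1 regions. The difference was 3.15 points (2.57 to 3.82). Relative to the regions that had Maf1 before hormone and lacked PR, of which 6.29% had R5020 POLR3A, the difference was -2.64 points (-5.35 to -0.623). With vehicle, POLR3A was at 54 regions (1.52%, against 0.830% of all). It was in both treatments at 50 regions and with R5020 only at 80. The POLR3A list itself was longer after R5020, with 1019 regions against 688 with vehicle. Of all 22638 R5020 Maf1 regions, 188 had POLR3A with vehicle and 266 with R5020. The R5020 POLR3A share was 2.32% of the regions with a Maf1 −log10 q under 3 and 11.7% of those at 10 or more, which is 18 of 154. With PR it was 0.583% and 0.496%. Shares by strength were not computed without the repeated arrays described below. Regions at or beside DUX4L4, DUX4L25 and RNA5S1 of those arrays were among the first 5 with POLR3A by Maf1 −log10 q.

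Brf1 after R5020 was at 113 regions (3.17%, 2.65 to 3.80), against 1.49% with PR and 2.33% of all, a difference of 1.68 points (1.12 to 2.33) from the regions with PR. All 44 regions with vehicle Brf1 (1.24%, against 0.685% of all) also had it after R5020, and 69 had it with R5020 only. The Brf1 list itself went from 370 regions with vehicle to 1157 with R5020. Of all R5020 Maf1 regions, 155 had Brf1 with vehicle and 527 with R5020. POLR3A and Brf1 were together at 88 regions after R5020. Without the regions at copies of the repeated genes described below, the Brf1 difference was 0.728 points (0.249 to 1.30) and the POLR3A difference 2.20 points (1.70 to 2.80). Without the whole spans of those arrays, they were 0.572 (0.108 to 1.13) and 1.82 (1.36 to 2.39).

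For the other subunits, part of the R5020 libraries carries the ethanol tag. POLR3C was at 2.25% of the regions with vehicle (1.81 to 2.79, against 1.46% of all) and 2.13% with R5020 (1.71 to 2.66, against 1.53%). POLR3GL was at 20 regions with vehicle (0.562%, against 0.309%) and 27 with R5020 (0.758%, against 0.331%). POLR3G, which has the longest lists of the subunits, was at 41.9% with vehicle (40.3 to 43.5, against 47.2%) and 36.8% with R5020 (35.2 to 38.4, against 46.4%). For vehicle POLR3G the difference from the hormone-only regions with PR was -0.341 points (-2.12 to 1.45), an interval that includes 0, while for R5020 it was -6.55 points (-8.30 to -4.79). Of the regions with vehicle POLR3G, 1127 of 1492 (75.5%) also had it with R5020, beside 76.9% of those with PR.

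The rule bears on PR before hormone as well, since a PR site present with vehicle and kept after R5020 cannot belong to the group. These values are therefore a description. A vehicle PR region was shared by 72 (2.02%, 1.61 to 2.54), against 17.8% of the hormone-only regions with PR and 19.9% of all. By Maf1 −log10 q, the first 5 of the 72 lay at ZNF783 and its neighbour LOC155060, beside RNA5S1, over the RNA45SN2 ribosomal RNA gene, at the DUX4 copy DUX4L14 and 494 bp from TOMM40, the gene of the mitochondrial import channel. The nearest R5020 PR region to any of these 5 was 1352 bp away.

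The regions with R5020 POLR3A were of 3 kinds by annotation. At tRNA genes there were 29, with R5020 POLR3A folds from 37.2 to 71.4 and a median of 59.9, and all 29 had POLR3A and Brf1 in both treatments. At copies of the repeated genes there were 36, with a median POLR3A fold of 3.75, of which 14 had vehicle POLR3A. The other 65 had a median POLR3A fold of 2.14, and 7 of them had vehicle POLR3A. Of these 65, 14 lay between the copies, within the spans of the arrays. Of the same 65, 26 had no annotated gene within 10 kb and 4 had a POLR3A fold above 8. The 4, chosen after their values were seen, lay over LOC100189498, a pseudogene on chromosome 1 (149708600 to 149708757, POLR3A fold 60.4), over the pseudogene LOC102723945 at METTL26 on chromosome 16, within 1 kb of the glycine tRNA gene TRG-CCC2-2 (fold 46.0), in LINC00921 on chromosome 16 (fold 12.6) and near TRG-GCC1-1, a glycine tRNA gene of chromosome 1, but beyond 200 bp from it (fold 11.6).

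The 29 regions at tRNA genes lay within 200 bp of 30 of the 422 tRNA genes examined. They were 0.815% of the regions without PR (0.568 to 1.17), against 0.279% with PR and 0.389% of all R5020 Maf1 regions, a difference of 0.535 points (0.271 to 0.895) from those with PR. The 30 genes were 8.17% of the 367 tRNA genes with POLR3A in either treatment. They lay on 11 chromosomes, with 8 on chromosome 6, 5 on chromosome 1 and 4 each on chromosomes 16 and 17. Their Maf1 folds ranged from 2.71 at TRW-CCA2-1, a tryptophan tRNA gene, to 5.53 at TRT-AGT2-1, a threonine tRNA gene, with a median of 3.95.

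All 30 genes had POLR3A, Brf1 and POLR3G within 200 bp in both treatments. H3K27Ac lay within 200 bp of 28 genes with vehicle (93.3%, 78.7 to 98.2) and of 27 after R5020 (90.0%, 74.4 to 96.5). At the 273 genes with POLR3A and no R5020 Maf1 region, R5020 H3K27Ac was found at 24.9% (20.2 to 30.4), R5020 Brf1 at 78.8% and R5020 POLR3G at 39.9%. At the 49 genes whose Maf1 region was hormone-only with PR, R5020 H3K27Ac was found at 98.0% (89.3 to 99.6). The median R5020 POLR3A fold was 59.7 at the 30 genes, 60.3 at the 49, and 37.5 at those of the 273 that had R5020 POLR3A. The median R5020 Brf1 fold was 70.6, 67.6 and 45.7 in the same order. On both measures the tRNA genes with Maf1, whether with or without PR, stood above those without Maf1.

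The distance from these Maf1 regions to the nearest R5020 PR region ran from 12 bp at TRP-TGG3-3, a proline tRNA gene, to 17216 bp at TRA-AGC11-1, an alanine tRNA gene, with a median of 759 bp, and was within 1 kb at 18 genes. At 2 of the 30 genes a PR region lay within 200 bp of the gene although it did not touch the Maf1 region. Some neighbours shared a POLR3A or a Brf1 region, and TRS-GCT4-3 and TRT-AGT1-1 on chromosome 17 shared 1 Maf1 region with a fold of 3.24.

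At TRT-AGT2-1 (chromosome 6, 26532859 to 26533048) the Maf1 fold of 5.53 stood beside R5020 folds of 71.4 for POLR3A and 86.5 for Brf1, and the Maf1 region was acetylated with vehicle only. At TRV-TAC1-1, a valine tRNA gene (chromosome 11, 59550425 to 59550738), the Maf1 fold was 4.59, the POLR3A fold 37.2 and the Brf1 fold 65.7, with acetylation in both treatments. At TRG-GCC2-6, a glycine tRNA gene inside HES7 on chromosome 17, the Maf1 fold was 4.74, the POLR3A fold 60.3 and the Brf1 fold 87.4, and the Maf1 region was acetylated with R5020 only. The Maf1 regions of these 3 genes thus differed in acetylation state, but H3K27Ac lay within 200 bp of each gene in both treatments. Its folds with vehicle and R5020 were 3.90 and 5.24 at TRT-AGT2-1, 12.2 and 10.1 at TRV-TAC1-1, and 4.30 and 3.99 at TRG-GCC2-6.

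**Figure D3:**
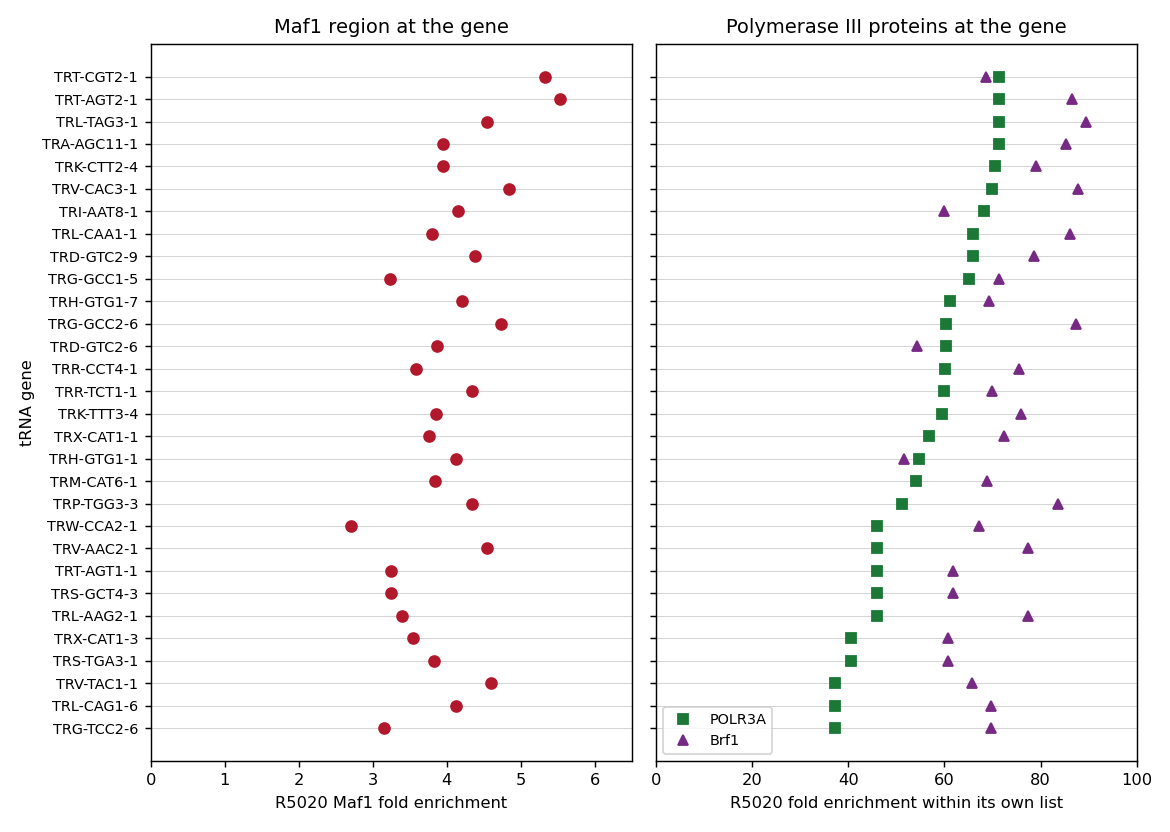
Fold enrichment after R5020 at the 30 tRNA genes with a hormone-only Maf1 region without PR, 1 row per gene, ordered by POLR3A; left, Maf1 (circles), right, POLR3A (squares) and Brf1 (triangles), each the authors' value within its own list. Maf1 folds lie between 2.71 and 5.53 and POLR3A folds between 37.2 and 71.4, on scales that cannot be compared between lists; neighbouring genes can share a region and then have equal points.

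Repeated gene arrays held 67 of the regions within 1 kb of a copy, and 95 when whole spans were taken (copies joined across gaps of up to 100 kb), at sequences whose reads can be split or pooled between near-identical sequences, so that the values of single copies are uncertain. At the 5S ribosomal RNA genes, which are polymerase III genes, 14 of 18 Maf1 regions were hormone-only without PR, with Maf1 folds from 1.78 to 2.90. All 14 had R5020 POLR3A (fold 2.20 to 13.6, median 12.6) and POLR3G, 13 had R5020 Brf1 and 13 were acetylated, and the nearest PR region was 6901 bp away. At the 45S ribosomal RNA genes of chromosome 21, which polymerase I transcribes, 17 of 34 Maf1 regions belonged to the group, with folds from 3.05 to 6.91. Of these, 2 had R5020 POLR3A, 10 had R5020 Brf1, 0 had vehicle Brf1 and 5 were acetylated after R5020. Of the other Maf1 regions, 16 at the 45S genes and 3 at the 5S genes were also in the vehicle list. A region over RNA45SN2 and RNA18SN2 (8210680 to 8211709) had a Maf1 fold of 6.49 and a Brf1 fold of 5.49, and lay 547 bp from a vehicle Maf1 region.

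DUX4 is a transcription factor gene of early embryos that lies in a repeat array near the end of chromosome 4, with a related array on chromosome 10. Its copies held 21 of the regions, 10 on chromosome 4 and 8 on chromosome 10, and 13 of them had R5020 POLR3A, 10 R5020 Brf1 and 15 R5020 H3K27Ac. The highest by Maf1, over DUX4L4 (chromosome 4, 190081055 to 190081248), had a fold of 4.45 and a −log10 q of 29.6. The REXO1L copies of chromosome 8 held 15, all without H3K27Ac and POLR3G in either treatment and at least 57116 bp from PR, and 7 of them had R5020 POLR3A at folds from 2.00 to 2.53. R5020 Maf1 regions also in the vehicle list numbered 5 at the DUX4 copies and 8 at the REXO1L copies. The whole span of the REXO1L array held 38 of the regions, 17 with R5020 POLR3A, 5 with R5020 Brf1 and 0 with H3K27Ac, at 38360 bp or more from PR.

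The 10 regions with the highest Maf1 −log10 q were mixed in their surroundings. The first lay in RCAN1, the gene of a calcineurin regulator (chromosome 21, 34514853 to 34516448), with a fold of 12.3 and a −log10 q of 49.6. It had no H3K27Ac in either treatment, held R5020 POLR3G and lay 1061 bp from PR. The next lay at VDR, the vitamin D receptor gene (chromosome 12, 47840293 to 47842530, fold 7.93), also without acetylation and with R5020 POLR3G. A region 2566 bp from NAP1L4, a histone chaperone gene (chromosome 11, 2939994 to 2941871, fold 7.89), was acetylated in both treatments.

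The region at LOC155060 and ZNF783 (chromosome 7, 149285038 to 149285514, fold 8.49) and one 3260 bp from RPS21-DT (chromosome 20, 62382561 to 62383043, fold 6.10) were acetylated in both treatments and held POLR3G in both. A region in SURF6, a nucleolar protein gene (chromosome 9, 133329290 to 133329652, fold 7.10), held POLR3G in both treatments without acetylation, 243 bp from PR. The region at SNX12 (chromosome X, 71068388 to 71068628, fold 7.50) was acetylated with R5020 only and lay 17258 bp from PR and 18109728 bp from the nearest vehicle Maf1 region. The 3 others lay over DUX4L4, 598 bp from MTCYBP13, a mitochondrial pseudogene on chromosome 17 (fold 2.79), and at chromosome 16, 34085200 to 34085384 (fold 3.77), 35105 bp from the nearest annotated gene.

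Acetylation with R5020 only was led, after SNX12, by CTRB1, a digestive protease gene (chromosome 16, Maf1 fold 5.92), and by a region 1505 bp from LOC105374297 on chromosome 3 (fold 3.22). A region 963 bp from NBL1, a BMP antagonist gene (chromosome 1, fold 5.56), and a region 936 bp from MIR570HG (chromosome 3, fold 3.14) followed. R5020 POLR3A was also found at a region in SLC6A3, the dopamine transporter gene (chromosome 5, Maf1 fold 3.16), and both POLR3A and Brf1 at a region 3264 bp from FAM230E (chromosome 22, Maf1 fold 1.94). The 5 regions farthest from PR lay on chromosomes 1, 10, 11 and 13, each at least 910273 bp from the nearest gene. The farthest, at chromosome 1, 123935340 to 123935507 (Maf1 fold 2.61), was 1676478 bp from PR. Only 1 of the 5, on chromosome 10, was acetylated, at low folds of 1.58 with vehicle and 1.70 with R5020. Its Maf1 fold was 1.42 and its R5020 POLR3A fold 1.69, and the R5020 POLR3A fold of the region on chromosome 13 was 1.98. Whether reads at these 5 places are split or pooled between repeated sequences, as in the arrays above, was not tested.

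Protein-coding genes were near about as many of these regions as of those with PR. Within 1 kb of a gene end lay 1189 (33.4%, 31.9 to 35.0), against 30.6% with PR and 34.5% of all, a difference of 2.78 points (1.09 to 4.50). Inside a protein-coding gene lay 53.4% (51.8 to 55.0), against 66.9% with PR and 65.4% of all, a difference of -13.5 points (-15.3 to -11.7). The share at gene ends depended on Maf1 strength in opposite directions with and without PR. Without PR it was 24.5% (21.9 to 27.3) at a −log10 q under 3 and 47.4% (39.7 to 55.3) at 10 or more. With PR it was 43.3% (40.3 to 46.3) and 18.2% (17.3 to 19.2). When regions within 1 kb of PR were counted as having PR, the difference at gene ends changed sign, to -5.64 points (-7.44 to -3.78).

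Genes of the cytosolic ribosomal proteins had the highest share with such a region among 15 gene lists, which were written with earlier results known and are described without a test. A hormone-only Maf1 region without PR lay within 1 kb of an end of 28 of 84 (33.3%), against 6.65% of all protein-coding genes. Any R5020 Maf1 region was found at 68 of the 84, against 35.8% of all genes, and a hormone-only region with PR at 39 (46.4%), against 25.2%. A region that had PR and was also in the vehicle Maf1 list was at 23 (27.4%), against 8.07%. The 28 regions had Maf1 folds from 2.28 to 5.89 with a median of 4.07 and lay a median of 815 bp from PR, and 12 of the 28 genes also had a hormone-only Maf1 region with PR. Of the 28, 24 had R5020 H3K27Ac, 25 had R5020 POLR3G and 0 had R5020 POLR3A or Brf1. H3K27Ac was near 82 of the 84 genes in both treatments.

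The region 1 kb or less from RPL35 (chromosome 9, 124855848 to 124857389) had a Maf1 fold of 5.89, and those at RPS14, RPS18 and near RPL6 had folds of 5.38, 5.12 and 4.46. The 3 first were acetylated in both treatments and that near RPL6 with R5020 only. All 4 held POLR3G in both treatments. Spliceosome genes had a region at 9 of 41 (22.0%), among them SNRPA with a Maf1 fold of 4.54. Proteasome genes had one at 6 of 39, led by PSMD1 (fold 4.54). Mitochondrial ribosomal protein genes had one at 7 of 77 (9.09%), oxidative phosphorylation genes at 8 of 90 (8.89%) and ZNF zinc finger genes at 35 of 509 (6.88%), shares near that of all genes.

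Among 31 genes of the polymerase III machinery, 4 (12.9%, against 6.65% of all genes) had a region without PR. Among them were SNAPC2 (Maf1 fold 4.78) and the polymerase subunit genes POLR3D (3.95) and POLR3E (3.32). A hormone-only region with PR was at 10 of the 31 (32.3%), against 25.2% of all genes. A region that had PR and was also in the vehicle Maf1 list was at 9 (29.0%), against 8.07%. The regions at SNAPC2 and near POLR3D were acetylated in both treatments and held POLR3G, while the region near POLR3E had neither. They lay 2338 bp, 214 bp and 18067 bp from R5020 PR in that order, and the region near POLR3D shared a vehicle PR region. The TORC1 list had 4 of 27 (14.8%), and a hormone-only region with PR was at 16 of the 27 (59.3%). The 4 were TSC2 (4.34), AKT1S1, the gene of a TORC1 inhibitor (3.55), RHEB (3.55) and NPRL3, a gene of the amino acid sensing arm (2.76). The Maf1 regions at TSC2 and AKT1S1 were acetylated in both treatments, that near RHEB with vehicle only and that at NPRL3 in neither. H3K27Ac was near 26 of the 27 TORC1 genes in each treatment, so these states are of the Maf1 regions and not of the genes. The regions at TSC2, AKT1S1 and RHEB lay close to R5020 PR, at 224 bp, 143 bp and 151 bp, and that at NPRL3 at 5955 bp. Those at AKT1S1 and RHEB shared a vehicle PR region. R5020 POLR3A was at 0 of the 8 regions of the polymerase III and TORC1 lists. Cytosolic aminoacyl-tRNA synthetase genes, whose products charge tRNAs, had 3 of 20 (15.0%): YARS1 (5.53), HARS1 (3.67) and VARS1 (2.89). A hormone-only region with PR was at 13 of the 20 (65.0%). The region at HARS1 lay 289 bp from a vehicle Maf1 region, that near YARS1 111919 bp and that near VARS1 46693 bp.

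Progestin-responsive genes had 2 of 16, both without acetylation of the Maf1 region: TSC22D3, a steroid-induced gene (chromosome X, 107712601 to 107712983, Maf1 fold 4.93), and MYC (fold 3.16). MYC also stood in the cell cycle list, 2 of 28 with CCND3 (2.78), and among the immediate early genes, 2 of 18 with FOSL2 (4.14). Luminal marker genes had 3 of 12: the keratin gene KRT19 (4.24), the transcription factor gene SPDEF (3.37) and PGR, the gene of PR itself (chromosome 11, 101029990 to 101030299, fold 3.08). The PGR region was acetylated with vehicle only and held R5020 POLR3G and POLR3GL. A vehicle Maf1 region lay 306 bp from the KRT19 region, 400 bp from that at SPDEF and 215 bp from that near FOSL2. For the others named here it lay 2335 bp (PGR) or farther away. The shares without PR were 12.5% of the progestin-responsive, 7.14% of the cell cycle, 11.1% of the immediate early and 25.0% of the luminal genes. Hormone-only regions with PR were at 37.5%, 35.7%, 61.1% and 66.7% in the same order, against 25.2% of all genes. Regions that had PR and were also in the vehicle Maf1 list were at 12.5%, 7.14%, 38.9% and 58.3%, against 8.07% of all genes. Basal marker genes had 0 of 8 and genes reported as Maf1-responsive 0 of 7, lists too short to read against the 6.65% of all genes. Another R5020 Maf1 region was found at 4 of those 7 (57.1%), against 35.8% of all genes.

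**Figure D4:**
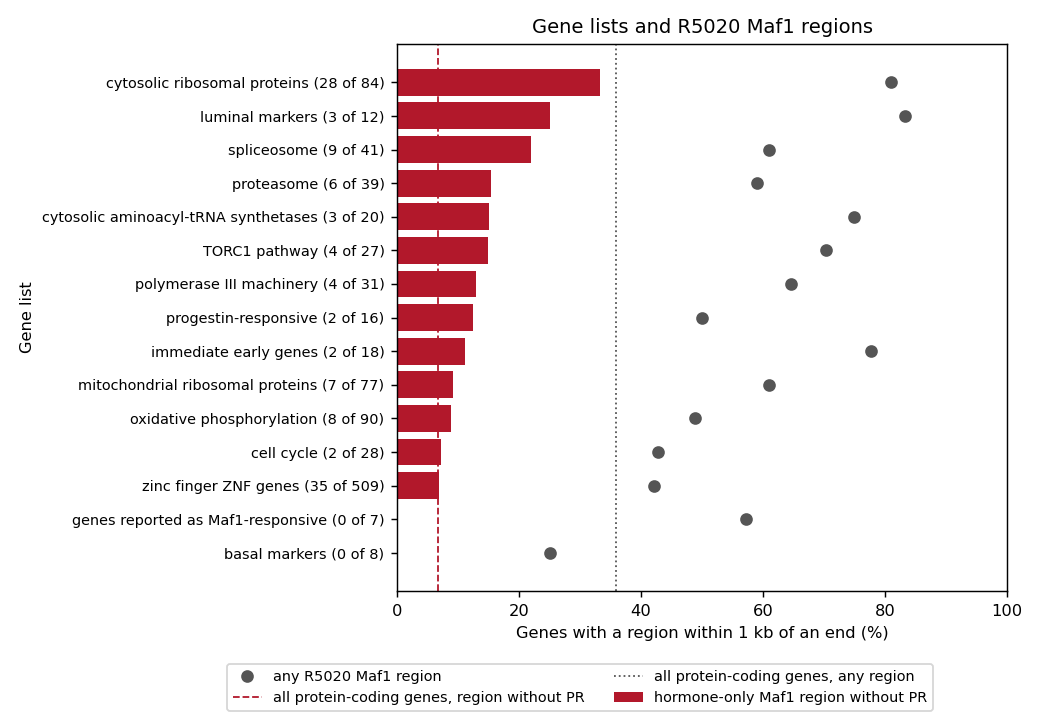
Share of the genes of 15 lists (percent) that had an R5020 Maf1 region within 1 kb of an end; bars, hormone-only regions without PR, with their count beside the name; points, any R5020 Maf1 region; dashed and dotted lines, the same for all protein-coding genes. Cytosolic ribosomal protein genes have the longest bar, 33.3% against 6.65% of all genes, while the bars of the Maf1-responsive and basal lists are at 0.

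Summits of the regions at promoters lay at the start site. Of the hormone-only regions without PR, 729 had their summit within 1 kb of a RefSeq start, at a median of 4 bases after it (quartiles -103 and 132), and 51.3% lay downstream. Promoter windows of 300 bases (250 before the start and 50 after) were searched for 14 motifs on both strands, in 22131 windows of 15811 protein-coding genes. Of these, 594 windows of 546 genes overlapped a region without PR and 4069 a hormone-only region with PR. The windows without PR had a median GC content of 67.7%, against 62.3% of all windows and 67.7% of those with PR.

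The core of the receptor element, ACANNNTGT, was in 5 of the 594 windows (0.842%, 0.360 to 1.96), against 3.96% of all windows and 2.16% (1.76 to 2.66) of those with PR. The 5 were those of CUL2, FREY1, WDR83OS, ATG4B and SPIN2B, named because there were so few. The half-site AGAACA was in 6.73% of windows without PR, 7.32% with PR and 11.7% of all. The AP-1 motif TGANTCA was in 1.68% (0.917 to 3.07), 3.54% (3.01 to 4.15) and 6.15% in the same order. The forkhead motif TGTTTAC was in 1.68%, 1.70% and 2.85%, the GATA motif AGATAA in 2.53%, 2.88% and 7.88%, and TATAAA in 3.37%, 3.69% and 9.46%. For each of these 6 motifs the share without PR was below that of all windows.

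The GC box, ETS, YY1 and CRE motifs had higher shares than in all windows, both without and with PR. The GC box GGGCGG was in 78.3% of windows without PR, 77.5% with PR and 56.3% of all, and the ETS motif CCGGAAG in 24.2% (21.0 to 27.9), 21.9% and 12.8%. The YY1 motif AAGATGGCG was in 6.23% (4.55 to 8.47), 4.84% and 2.42%, and the CRE motif TGACGTCA in 4.21%, 3.07% and 2.26%. The NF-Y motif CCAAT (35.7%, 31.9% and 34.6%) and the E-box CACGTG (8.92%, 10.9% and 8.34%) were closer to their shares in all windows. The NRF1 motif was in 1.35% without PR, 2.24% with PR and 1.50% of all. The polymerase III B box was in 2 windows without PR (0.337%), 0.246% with PR and 0.176% of all. In the printed sequences, SNX12 has an ETS and an NF-Y match, RPS18 has ETS matches and a receptor half-site, and TSC2 has an E-box, a GC box and an ETS match. SNAPC2 has GC boxes, an NF-Y and a GATA match, and RHEB GC boxes and NF-Y matches. Matches of different motifs can overlap, and a match is only an occurrence of the letters.

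**Figure D5:**
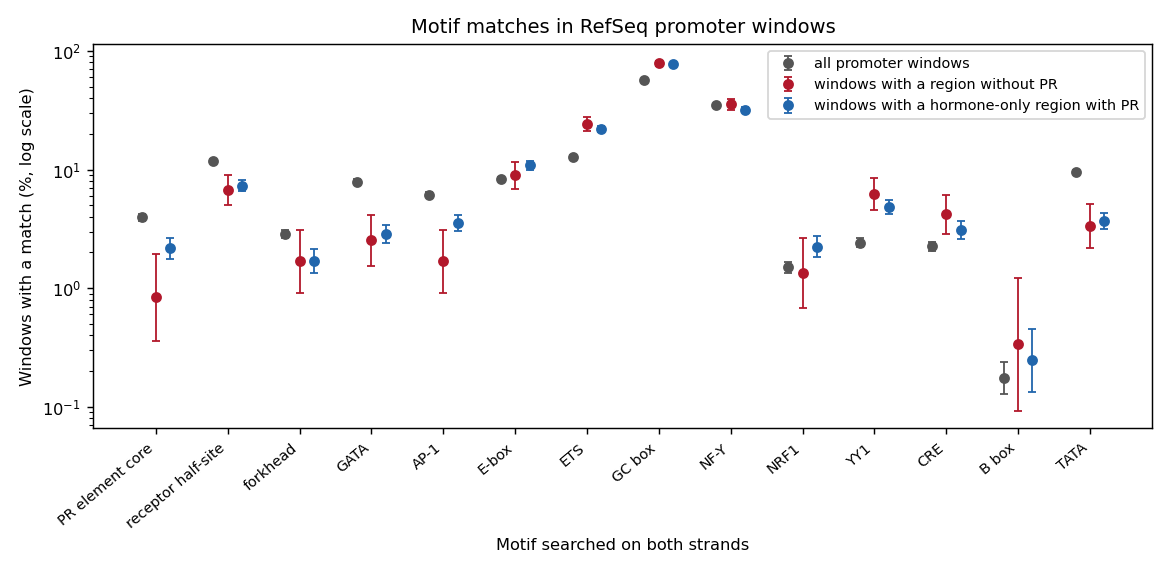
Share of RefSeq promoter windows with a match to each of 14 motifs (percent, log axis, with 95% Wilson intervals), for all windows, windows with a hormone-only Maf1 region without PR and windows with one with PR. The receptor element core is at 0.842% without PR, 2.16% with PR and 3.96% of all windows, and the ETS motif at 24.2%, 21.9% and 12.8% in the same order.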

How the data were processed

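The values came from 16 deposited region lists in narrowPeak layout, 1 per antibody and treatment, each standing for 3 libraries. How the replicates were combined, the control and the caller's settings are not given in the sources used here. The submitters' processing notes name cutadapt, Bowtie2 and MACS2 and the build hg38. Each deposited row holds the authors' fold enrichment (a ratio over background), −log10 p and −log10 q, an integer score and the other value, the summit position. Scores and p-values were not used, and fold and q served only to describe or rank regions within 1 list.

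Regions on chromosomes 1 to 22 and X were kept, and sharing meant at least 1 common base. Where several partners overlapped, that with the highest −log10 q gave the fold. Gene spans came from the RefSeq table of GRCh38.p14, which gives no strand, so either end counted. Rows of scaffolds can stand under a chromosome's name there, and 422 of 443 tRNA genes were used, those with a numbered symbol and beyond the first 100 kb of a chromosome. Promoter windows came from RefSeq as well.

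The regions and gene lists were chosen with earlier results of these data known. Loci named are, by Maf1 −log10 q, the first 10 regions, the first 5 each without H3K27Ac, with R5020-only H3K27Ac, with POLR3A, with Brf1 and with vehicle PR, up to 10 at tRNA genes, up to 4 genes per list (some are not reported here), the 5 farthest from PR and 5 on each side of the boundary of the rule. The overlap code was tested on simulated data. Python 3.11.15, numpy 2.4.6, pandas 2.3.3 and matplotlib 3.10.9 were used. Alternatives were stricter q for Maf1, PR or partners, a margin of 1 kb around PR or vehicle Maf1, 50% mutual overlap, 5 kb from gene ends and, chosen after seeing the data, the group without the repeated arrays, at the copies or over whole spans.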

Additional observations from a re-analysis of the deposited data

Results flagged for a closer look

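Outside chromosomes 1 to 22 and X, on sequences that the comparisons did not use, the R5020 Maf1 list held 253 rows. Of these, 179 shared no base with a vehicle Maf1 row or an R5020 PR row and would meet the same definition, while the vehicle list held 51 Maf1 rows there. They were singled out because they are signal in data outside the comparisons, and nothing further was tested on them.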

How the results depend on the processing

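Values are shares in percent and, for differences from the hormone-only regions with PR, percentage points. With Maf1 −log10 q of at least 5, 1108 regions were left, and their shares were 60.3 for R5020 H3K27Ac (difference -20.7), 56.6 for vehicle H3K27Ac (-16.1), 5.87 for Brf1 (4.15), 7.04 for POLR3A (6.54), 3.79 for vehicle PR and 41.9 for gene ends (15.5). With regions within 1 kb of PR counted as having PR, 2595 were left, R5020 H3K27Ac was 36.6 (-43.7), vehicle H3K27Ac 32.8 (-40.8) and gene ends 26.2, where the difference changed sign to -5.64. Without regions within 1 kb of vehicle Maf1, H3K27Ac was 46.8 with R5020 and 42.3 with vehicle. When weaker PR regions (−log10 q under 5) were not counted as PR, 4329 regions met the definition and the values were 56.8 (-22.8) and 53.0 (-19.5) for H3K27Ac, 4.16 (-13.8) for vehicle PR and 40.1 (11.5) for gene ends. When both regions had to share 50% of their length, 16827 regions met the definition, H3K27Ac was 3.23 (-1.01) and 3.19 (-1.80), POLR3A 0.499 (0.250), vehicle PR 8.24 (-9.52), and the differences for Brf1 (0.594, -0.199) and gene ends (29.3, -16.9) changed sign. This setting changed both the definition of the regions and the overlap with each partner. Only 3560 R5020 Maf1 regions touch neither vehicle Maf1 nor PR, and 445 touch vehicle Maf1 but not PR. Most of the 16827 therefore touch PR, and regions that touch vehicle Maf1 could also enter. With partner −log10 q of at least 5, H3K27Ac was 40.9 (-34.5) and 38.6, POLR3A 2.72 (2.25) and vehicle PR 0.674 (-11.6). Within 5 kb of gene ends the share was 55.1 (11.4). Without the repeated arrays, Brf1 was 2.20 (0.728) and POLR3A 2.69 (2.20), and without the whole spans of these arrays 2.05 (0.572) and 2.31 (1.82). The other 45 values kept their direction, with shares and differences inside the counting interval of the reported value and counts within 1.5 times, and the cause was not tested for those that moved. No paired analysis was possible because 1 list per antibody and treatment stands for its 3 replicates, and for the same reason no replicate could be left out. The read depth is unknown, so absence from a list is not absence of binding.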
